A study of Mus musculus with 13 samples.

Results

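Chemokines are small secreted proteins that guide migrating leukocytes, and they act through G protein-coupled receptors on the surface of the responding cell. In an aneurysmal aorta they are best known for drawing monocytes, neutrophils and lymphocytes into the wall, while a few, such as Cxcl12, are also made steadily by stromal and vascular cells. Atypical receptors bind the same ligands and take them up without G protein signalling.

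The family was examined in the aortas of AngII-infused ApoE-/- mice, where 6 mice had received an adenovirus without insert (Ad-sham) and 7 one that carries mouse Fam3a (Ad-FAM3A). All 13 mice lacked ApoE, were 10 weeks old at the start, received AngII at 1000 ng/kg/min for 28 days from a subcutaneous pump, and had 5 tail vein injections of virus. The study's methods name an Ad-FAM3A vector with Flag-tagged Fam3a and mCherry behind the EF1A promoter, which is active in many cell types. They also name a CMV Gateway vector for its construction, so the promoter is not certain. The control was the same vector without Fam3a. The sex of each mouse was not given. Members were the protein-coding genes of the count table whose names follow the chemokine ligand, chemokine receptor or atypical receptor nomenclature, which gave 66 of 54532 genes. They carry 60 symbols, since some CC ligands are present in further copies on unplaced scaffolds (7 rows), and they comprise 44 ligand, 18 receptor and 4 atypical receptor rows. Cxcl11 is listed as a polymorphic pseudogene and was therefore not a member. Its counts summed to 81 over the 13 aortas.

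Total counts ranged from 14481179 to 19797407 per aorta, and 3 counts, the limit that a count of 0 allows, corresponded to 0.140 to 0.220 CPM, a limit that covers counting error only. CPM here is a count scaled by the total of its library and by edgeR's TMM factor. The smooth muscle markers Myh11, Acta2, Cnn1 and Tagln were present in every aorta, with a summed level of 2012 to 16455 CPM. Fam3a itself was at 24.4 ± 4.27 CPM in Ad-sham (SD, n = 6) and 23.9 ± 4.67 CPM in Ad-FAM3A (SD, n = 7). By edgeR's quasi-likelihood test its log2 difference was -0.03 with SE 0.16 and an adjusted p of 0.971, so that the directions below refer to the labels of the libraries. Ad-FAM3A6 and Ad-FAM3A7 stood apart from the other 11 aortas in B cell genes. The summed level of 7 B cell markers was 849.9 and 344 CPM in them and 13.9 to 54.5 CPM in the others. The 5 plasma cell markers, of which 4 were tested, summed to 10090 and 3002 CPM in them and to at most 188 CPM elsewhere. The immunoglobulin gene Igkc gave 8447 and 2574 CPM of these sums. Values without these aortas are given beside the results that moved most when they were left out, and the plot of fold changes shows both values for the members. Ad-sham4 stood apart in thymocyte genes, with Rag1 at 91.5 CPM.

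Of the 66 members, 62 had a count in at least 1 aorta, 41 had one in all 13, and 44 had enough counts to be compared (26 ligands, 14 receptors and 4 atypical receptors). No member was called differentially expressed between Ad-FAM3A and Ad-sham by the criterion used (an absolute log2 fold change above 1 with the adjusted p below 0.05), and the share called among all 15811 genes tested was 0%. The smallest adjusted p among members was 0.810 (Benjamini-Hochberg over all genes, from edgeR's quasi-likelihood fit). At an unadjusted p under 0.05 there were 3 members, against 5.91% of all genes, a share that would be between 2 and 3 of 44. Ccl5 and Cxcr5 had higher (2.98% of all genes) and Cxcl14 lower values (2.93%) in Ad-FAM3A. DESeq2, which kept 61 members, called none (0.0325% of all genes) and gave 7 an unadjusted p under 0.05 (4.88%). None of the 44 had groups that did not overlap, against 0.0949% of all genes. In 25 members the fitted log2 fold change was above 0 (56.8%, against 50.4% of all genes), with a median of 0.16 against 0.00 for all genes. In 9 members it was above 1 (2.46% of all genes) and in 1 it was below -1 (1.21% of all genes). This turned round when Ad-FAM3A6 and Ad-FAM3A7 were left out, with 1 of 42 members above 1 (1.38% of all genes) and 7 below -1 (2.27% of all genes).

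The family differed more between aortas of 1 group than most genes did. The SD of log2 CPM within groups had a median of 1.02 over the 44 members and 0.46 over all genes tested, although members also had lower levels, with a median mean log2 CPM of 2.24 against 4.16. Ccl25, a ligand best known from thymus and gut, varied least (SD 0.31), and the Ccl21a copy on a scaffold varied most (SD 1.93). Ccl25 overlaps Elavl1 on the opposite strand, which had 13453 counts against 801 for Ccl25, so that part of its reads could be those of Elavl1. Of the 13 aortas, Ad-FAM3A6 was the highest for 14 of the 44 members (31.8%, against 14.6% of all genes tested), while Ad-FAM3A4 and Ad-FAM3A5 were each the lowest for 10 (22.7%, against 6.24% and 12.3% of all genes). By these tallies of members the 7 Ad-FAM3A aortas held both ends. The summed CPM of the 66 members was lowest in Ad-FAM3A4 (537 CPM) but highest in Ad-sham4 (1402 CPM, against 1312 CPM in Ad-FAM3A6). Ad-FAM3A4 and Ad-FAM3A5 also had high smooth muscle marker sums, 16455 and 11884 CPM, and Ad-FAM3A6 had the lowest, 2012 CPM. In bulk tissue, fewer cells of a type and less RNA per cell cannot be told apart, and the part of cell makeup in these values was not tested.

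**Figure D1:**
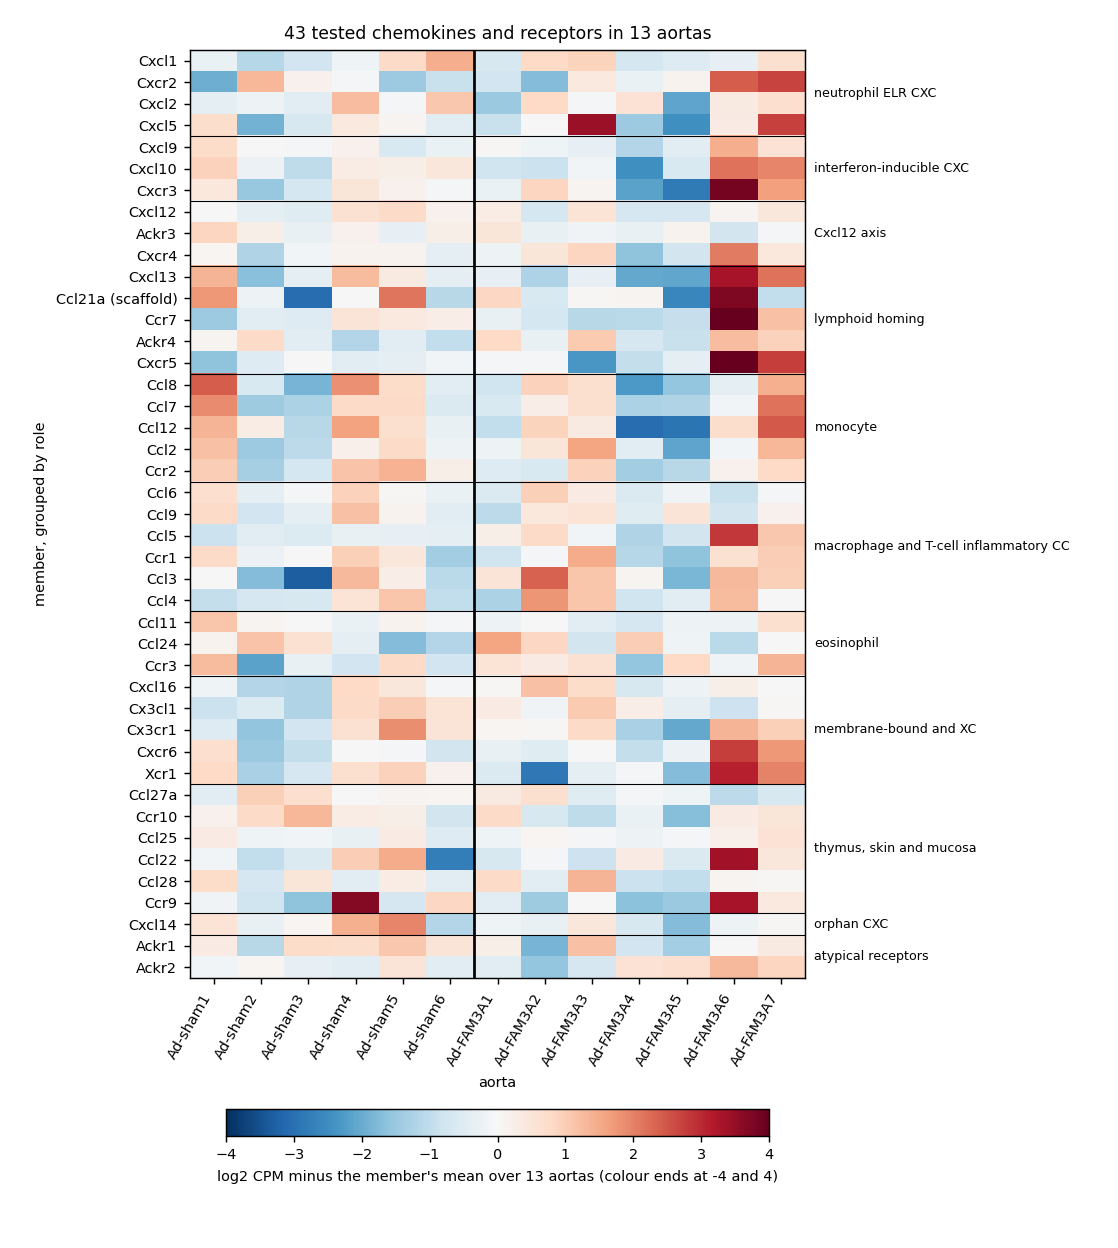
Level of 43 of the 44 tested members (rows, grouped by role) in each of the 13 aortas (columns), as log2 CPM minus the member's mean, with red above and blue below the mean and a line between Ad-sham and Ad-FAM3A. Among the deepest red cells are those in the Ad-FAM3A6 column at Ccr7, Cxcr5, Cxcr3, Cxcl13 and the scaffold copy of Ccl21a, and Ad-FAM3A4 and Ad-FAM3A5 are blue in most rows.

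Compared per length, as CPM per kilobase of the deposited gene length, the highest median over the 13 aortas was that of Ccl6 (58.4), followed by Ccl8 (41.98), Cxcl12 (34.3), Ccl9 (29.1), Ackr3 (25.9), Ccl11 (14.99), Cxcr4 (14.1) and Cxcl13 (10.5). Ccl6 and Ccl9 are CC ligands of Ccr1 made by myeloid cells. The classical monocyte ligand Ccl2 had a median of 3.98 CPM per kilobase. No neighbours in the order differed beyond their spread, since the ranges over aortas overlapped for 43 of 43 adjacent pairs. Among the receptors Cxcr4 came first, before Ccr2 (3.88) and Ccr1 (2.05).

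**Figure D2:**
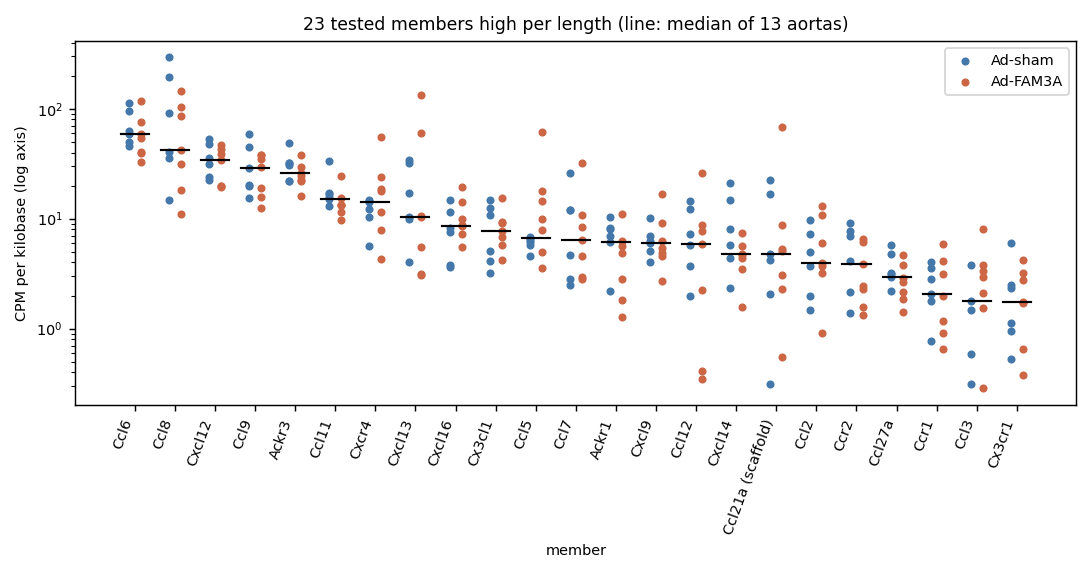
CPM per kilobase (log axis) of 23 tested members with high medians, with a point for each aorta (blue Ad-sham, orange Ad-FAM3A) and a line at the median of 13. Medians fall from 58.4 for Ccl6 to 1.74 for Cx3cr1, and blue and orange points overlap for every member shown. The value of 0 for Ccl3 in Ad-sham3 cannot be drawn on this axis.

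The lymphoid homing system organises B and T cells in lymph nodes and in lymphoid aggregates. Cxcl13 attracts B cells through Cxcr5, whereas Ccl19 and Ccl21 attract T cells and dendritic cells through Ccr7, and Ackr4 removes Ccl19 and Ccl21. All 5 tested members of the group had a log2 fold change above 0, with a median of 0.85, and none was called. Without Ad-FAM3A6 and Ad-FAM3A7, Ackr4 was the 1 of them above 0 (0.41, SE 0.45). Cxcl13 (chromosome 5, 95956951 to 95961068, GRCm38) had a lowest, median and highest level of 4.66, 15.8 and 39.5 CPM in Ad-sham and of 3.53, 12.03 and 152 CPM in Ad-FAM3A. Its fold change of 0.85 on the log2 scale (SE 0.87, unadjusted p = 0.345 by edgeR) went with a lower median in Ad-FAM3A. The highest level, 152 CPM, was in Ad-FAM3A6 and the next, 69.2 CPM, in Ad-FAM3A7. The other 5 Ad-FAM3A aortas lay between 3.53 and 12.1 CPM, and Ad-FAM3A4 and Ad-FAM3A5 (3.63 and 3.53 CPM) were below the lowest Ad-sham aorta. Without Ad-FAM3A6 and Ad-FAM3A7 the log2 fold change of Cxcl13 was -1.47 (SE 0.55).

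The receptor Cxcr5 (chromosome 9, 44511787 to 44561877) ranged from 0.792 to 2.65 CPM in Ad-sham with a median of 1.99 CPM, and from 0.422 to 45.7 CPM in Ad-FAM3A with a median of 2.51 CPM. Ad-FAM3A6 (45.7 CPM) and Ad-FAM3A7 (18.7 CPM) were above all other aortas and the remaining 5 overlapped with Ad-sham. The log2 fold change was 2.43 (SE 0.93, unadjusted p = 0.0201, adjusted p = 0.810 by edgeR) with all aortas and -0.14 without these aortas, and the two-sided exact permutation test with all aortas gave p = 0.373. The gene overlaps Bcl9l on the opposite strand, and since it is not known whether reads were counted by strand, part of the low Cxcr5 counts could be reads of Bcl9l.

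Ccr7 (chromosome 11, 99144196 to 99155077) lay at 1.19 to 4.996 CPM in Ad-sham, with a median of 3.32 CPM. In Ad-FAM3A it reached 62.8 and 7.97 CPM in Ad-FAM3A6 and Ad-FAM3A7, and the group median was 2.09 CPM. A single aorta thus held 62.6% of the summed level of the 13, and 5 of the 7 Ad-FAM3A aortas were below the Ad-sham median. The log2 fold change was 1.81 (SE 0.92, unadjusted p = 0.0686 by edgeR), and it was -0.15 without Ad-FAM3A6 alone and -0.75 without both aortas.

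Ccl19 was not compared because it was nearly absent outside 2 aortas. Its counts were 304 in Ad-FAM3A6, 76 in Ad-FAM3A7, 17 in Ad-sham5 and 2 in Ad-sham4, and 0 in the other 9 aortas. These counts correspond to 18.4, 4.39, 0.793 and 0.128 CPM. The Ccl21 genes are several near-identical copies, and every window of 100 bases of the Ccl21b transcript also occurs in Gm10591, Gm13304 and Gm21541, which the nomenclature rule does not include, so that the split of reads among copies is uncertain. Summed over 9 copies, Ccl21 was at 30.5 CPM in Ad-FAM3A6, 12.2 CPM in Ad-sham5 and 9.51 CPM in Ad-sham1, and at 0.735 to 4.55 CPM in the other 10. Unlike Cxcl13, Cxcr5 and Ccl19, Ccl21 was not high in Ad-FAM3A7 (2.71 CPM). Most of the reads were assigned to a Ccl21a copy on an unplaced scaffold (986 counts), and the copy on chromosome 4 had 41. The scaffold copy had a log2 fold change of 0.66 (SE 1.01), and -1.02 without Ad-FAM3A6. Ackr4 lay at 2.11 to 8.41 CPM in Ad-sham and 2.57 to 11.7 CPM in Ad-FAM3A, where it was highest in Ad-FAM3A6 (11.7 CPM), Ad-FAM3A3 (10.2 CPM) and Ad-FAM3A7 (9.41 CPM), with a log2 fold change of 0.75 (SE 0.43, unadjusted p = 0.104 by edgeR). It overlaps Acad11 on the opposite strand.

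The highest aorta was Ad-FAM3A6 for 5 other receptors of lymphocytes as well. Ccr6, which B cells and a subset of T cells carry, had 359 counts in Ad-FAM3A6 and 166 in Ad-FAM3A7 (21.7 and 9.58 CPM) and at most 35 counts elsewhere (1.92 CPM or less), and was too low in most aortas to be compared. Its ligand Ccl20 had 1 count in all. Cxcr3, the receptor of activated T cells and NK cells, was at 27.2 and 5.89 CPM in Ad-FAM3A6 and Ad-FAM3A7 and at most 3.38 CPM elsewhere. The Cxcr3 log2 fold change was 1.74 (SE 0.92, unadjusted p = 0.0788 by edgeR), and -0.24 without both aortas. Cxcr6, found on T cells, went from 1.33 (SE 0.67, unadjusted p = 0.0654 by edgeR) to -0.14, and it overlaps Fyco1 on the opposite strand. Ccr4 and Ccr8, receptors of T cell subsets, had 64 and 33 counts in all, of which Ad-FAM3A6 held 58.9% and 51.1% of the summed CPM. Ccr4 was not high in Ad-FAM3A7 (0.231 CPM, against up to 0.705 CPM in Ad-sham).

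In Ad-FAM3A6 and Ad-FAM3A7 these levels moved with markers of lymphocytes and with some, though not all, markers of lymphoid tissue. All 7 B cell markers (among them Ms4a1, Cd79a and Pax5) were in the table and tested. Their sum ranged from 13.9 to 54.5 CPM in Ad-sham and from 15.3 to 849.9 CPM in Ad-FAM3A, and none was at 0 in any aorta. The 8 T cell markers summed to 10.5 to 199 CPM in Ad-sham and 10.4 to 476 CPM in Ad-FAM3A, with 476 and 83.7 CPM in Ad-FAM3A6 and Ad-FAM3A7, so that Ad-sham4 (199 CPM) was above Ad-FAM3A7 in T cell genes. Glycam1, a defining gene of the high endothelial venules of lymph nodes, reached 69.6 CPM in Ad-FAM3A6 and 12.2 in Ad-FAM3A7, and was at 0 in 6 aortas and at no more than 0.675 CPM in the others. The list of lymphoid stroma and venule genes had 4 of 5 found and 1 tested. It summed to 1.35 to 6.05 CPM in Ad-sham, and to 183 and 62.8 CPM in Ad-FAM3A6 and Ad-FAM3A7. Cr2, also 1 of the 7 B cell markers, gave 103.9 and 48.9 CPM of these sums. Madcam1 was highest in Ad-FAM3A6 (5.92 CPM) and Ad-FAM3A7 (0.751 CPM). Chst4 was highest in Ad-sham3 (4.22 CPM), above Ad-FAM3A6 (3.63 CPM), and Ad-FAM3A7 (0.982 CPM) was below Ad-sham1 (1.12 CPM). The part of such cells and tissue in the chemokine and receptor levels was not tested.

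**Figure D3:**
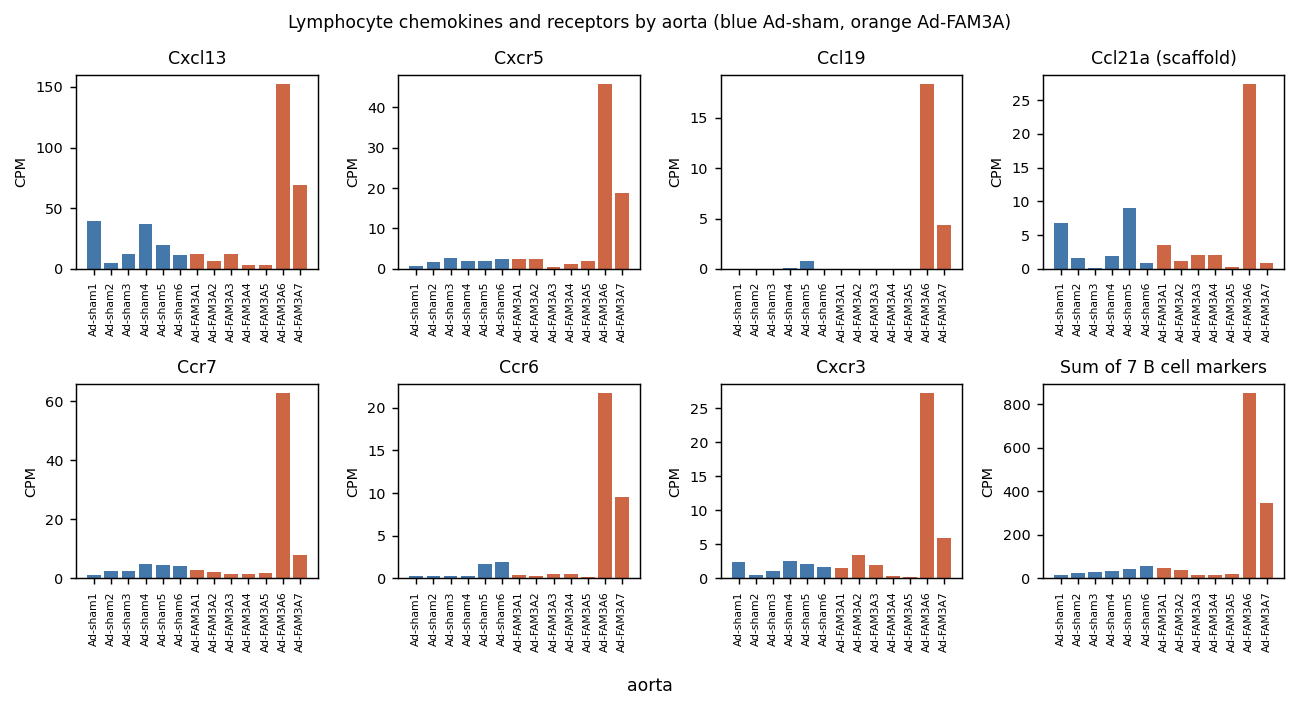
CPM of 7 lymphocyte chemokines and receptors and the summed CPM of 7 B cell markers, as 1 bar per aorta (blue Ad-sham, orange Ad-FAM3A, each panel with its own scale from 0). Ad-FAM3A6 has the tallest bar in all 8 panels, and Ad-FAM3A7 the next in all but the panel of the Ccl21a scaffold copy.

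The promoter sequence of Cxcl13 is shown because this ligand was highest in Ad-FAM3A6 and next highest in Ad-FAM3A7, and it can be set beside those of the interferon-inducible ligands. The window is the 250 bases before the RefSeq gene start, 5′ to 3′ on the gene's strand, on GRCm38.p6 (chr5:95956689-95956938, plus strand). Capitals mark matches to TATAAA, a common form of the TATA box, searched on both strands.
Cxcl13: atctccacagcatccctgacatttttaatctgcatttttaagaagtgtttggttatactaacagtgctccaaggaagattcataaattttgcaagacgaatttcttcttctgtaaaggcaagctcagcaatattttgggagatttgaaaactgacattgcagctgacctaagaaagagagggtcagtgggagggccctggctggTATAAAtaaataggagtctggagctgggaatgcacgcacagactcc

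Cxcl13 held a TATAAA match with its first base at position -46 from the start. RefSeq promoters were matched for 45 of the 59 member symbols on main chromosomes, as 52 windows. TATAAA was found in 14 of these 52 (26.9%, against 12.4% of all 32851 promoters). A match describes these letters only, and 23 of the 52 windows overlap the gene as deposited, whose start can differ from that of RefSeq. The windows printed here do not.

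Cxcl9 and Cxcl10 are induced by interferons and attract T cells and NK cells through Cxcr3. They lie side by side on chromosome 5 (92321347 to 92348889). Cxcl9 had a lowest, median and highest level of 12.1, 18.4 and 30.6 CPM in Ad-sham and of 8.15, 16.3 and 51.0 CPM in Ad-FAM3A. Cxcl10 had 1.57, 4.01 and 6.40 CPM in Ad-sham and 0.501, 2.13 and 15.3 CPM in Ad-FAM3A. For both genes the highest aorta was Ad-FAM3A6, the lowest was Ad-FAM3A4, and the groups overlapped. The log2 fold change was 0.16 for Cxcl9 (SE 0.36) and 0.48 for Cxcl10 (SE 0.67), with unadjusted p-values of 0.665 and 0.485 by edgeR. Without Ad-FAM3A6 and Ad-FAM3A7 they were -0.43 and -1.08, the latter with SE 0.44. Cxcl10 overlaps Art3 on the opposite strand, a gene with 17384 counts against 1010 for Cxcl10. The windows before both genes, chr5:92328080-92328329 for Cxcl9 and chr5:92348890-92349139 for Cxcl10, both on the minus strand, were as follows.
Cxcl9: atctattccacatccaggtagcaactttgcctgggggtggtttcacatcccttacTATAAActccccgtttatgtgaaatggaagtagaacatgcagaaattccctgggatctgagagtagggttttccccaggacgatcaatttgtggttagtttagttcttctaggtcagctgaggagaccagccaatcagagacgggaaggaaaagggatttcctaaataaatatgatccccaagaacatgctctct
Cxcl10: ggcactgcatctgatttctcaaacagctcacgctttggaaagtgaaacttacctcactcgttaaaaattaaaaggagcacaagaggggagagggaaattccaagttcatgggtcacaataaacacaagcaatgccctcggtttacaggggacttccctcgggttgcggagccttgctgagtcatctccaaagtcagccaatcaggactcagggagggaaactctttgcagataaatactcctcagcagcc

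The Cxcl9 window held TATAAA at -195, far from the usual place of a TATA box near the start, and the Cxcl10 window held none.

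Monocytes leave the bone marrow and enter inflamed vessel walls through Ccr2, whose ligands Ccl2, Ccl7 and Ccl12 lie with Ccl8 and Ccl11 in a cluster of 6 members on chromosome 11 (82035571 to 82305690). In this group 1 of 5 tested members had a log2 fold change above 0, with a median of -0.04. Ccl8, the highest of them per length, had a lowest, median and highest level of 7.56, 33.6 and 150.4 CPM in Ad-sham and of 5.64, 21.5 and 74.9 CPM in Ad-FAM3A. Its aortas spanned 26.7-fold, with Ad-sham1 (150.4 CPM) and Ad-sham4 (98.7 CPM) at the upper end and Ad-FAM3A4 (5.64 CPM) and Ad-sham3 (7.56 CPM) at the lower end. Its log2 fold change was -0.83 (SE 0.69, unadjusted p = 0.252 by edgeR) and moved from -1.19 to -0.21 as single aortas were left out, the latter without Ad-sham1.

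Ccl7 and Ccl12 were highest in Ad-FAM3A7 (25.6 and 14.03 CPM). Ccl12 was lowest in Ad-FAM3A4 and Ad-FAM3A5 (0.188 and 0.220 CPM), with 3 counts in each, the limit that a count of 0 allows. Their log2 fold changes were both -0.04, with SE 0.65 and 0.79. These values rested on 1 aorta, since they were -0.73 and -0.81 without Ad-FAM3A7, and -0.77 (SE 0.62) and -1.10 (SE 0.77) without Ad-FAM3A6 as well. Ccl2 had medians of 4.93 CPM in Ad-sham and 4.53 CPM in Ad-FAM3A and a log2 fold change of 0.29 (SE 0.55). The receptor Ccr2 had medians of 37.3 and 16.6 CPM, ranges of 9.32 to 61.3 and of 8.96 to 44.2 CPM, and a log2 fold change of -0.59 (SE 0.47, unadjusted p = 0.231 by edgeR), and 5 of 7 Ad-FAM3A aortas were below the Ad-sham median. Without Ad-FAM3A6 and Ad-FAM3A7 it was -0.89 (SE 0.52). None of these differences exceeded the spread between aortas.

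All 8 macrophage markers were found and tested, none was at 0, and they summed to 831 to 2235 CPM in Ad-sham and 641 to 3701 CPM in Ad-FAM3A. The order of the aortas differed between single markers. Lyz2 made up most of the highest sum, with 2832 of 3701 CPM in Ad-FAM3A2, which had 53.3 CPM of Ccl8 and 15.3 CPM of Ccr2. Mrc1, a marker of resident macrophages, was highest in Ad-sham1 (169.5 CPM), Ad-FAM3A7 (153.6 CPM) and Ad-sham4 (148 CPM). These aortas also led in Ccl8, and Mrc1 was at 40.6 CPM in Ad-FAM3A2. None of the other macrophage markers was highest in the same set of aortas. Cd68 and C1qa were highest in Ad-FAM3A2 (123.6 and 232 CPM) and at 32.5 and 52.9 CPM in Ad-sham1. The 4 mast cell markers, all tested, summed to 98.7 CPM in Ad-sham1 and 89.96 CPM in Ad-FAM3A7, where Ccl7 and Ccl11 were also highest, and to 12.4 to 52.7 CPM in the other 11 aortas. The part of these cells in the ligand levels was not tested.

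**Figure D4:**
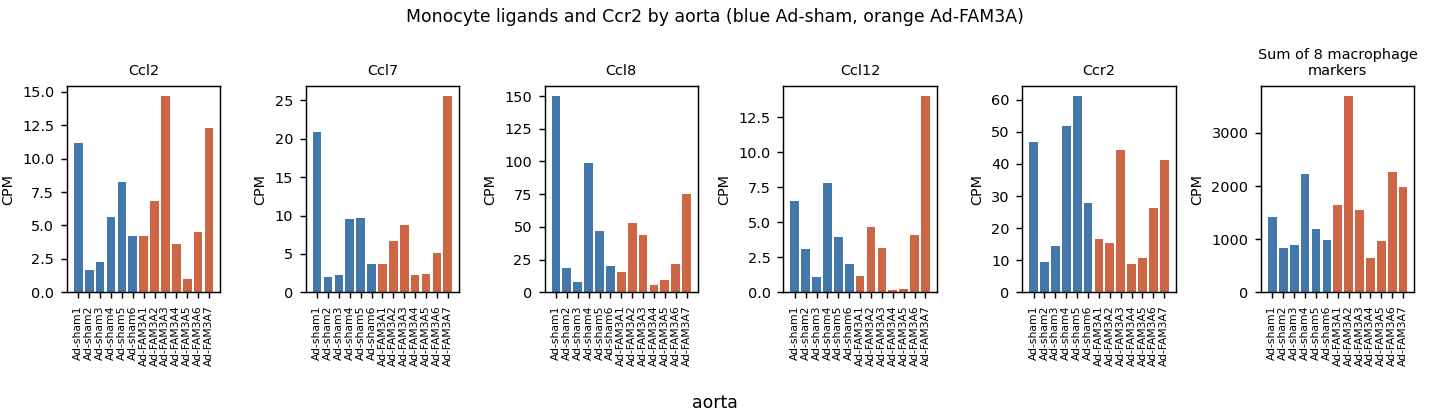
CPM of the monocyte ligands Ccl2, Ccl7, Ccl8 and Ccl12, of Ccr2, the receptor of Ccl2, Ccl7 and Ccl12, and of the sum of 8 macrophage markers, as 1 bar per aorta (blue Ad-sham, orange Ad-FAM3A, scales from 0). Ccl7 and Ccl8 are high in Ad-sham1 and Ad-FAM3A7, Ccl12 is lowest in Ad-FAM3A4 and Ad-FAM3A5, and the tallest macrophage bar is that of Ad-FAM3A2.

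The windows before Ccl12 (chr11:82101595-82101844) and Ccl8 (chr11:82114935-82115184), both on the plus strand, are shown because both of these neighbouring genes were lowest in Ad-FAM3A4 and, within Ad-FAM3A, highest in Ad-FAM3A7. Each held TATAAA close to the start, with the first base at -31 and -32.
Ccl12: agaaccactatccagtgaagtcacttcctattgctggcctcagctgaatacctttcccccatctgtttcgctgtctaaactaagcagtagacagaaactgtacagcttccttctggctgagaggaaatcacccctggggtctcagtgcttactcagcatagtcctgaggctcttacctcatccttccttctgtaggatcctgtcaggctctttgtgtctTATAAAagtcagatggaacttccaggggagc
Ccl8: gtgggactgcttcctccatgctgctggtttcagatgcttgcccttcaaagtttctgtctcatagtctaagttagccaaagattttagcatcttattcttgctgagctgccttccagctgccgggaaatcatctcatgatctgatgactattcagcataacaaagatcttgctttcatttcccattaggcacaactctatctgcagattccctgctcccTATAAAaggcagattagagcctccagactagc

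The inflammatory CC ligands of a further cluster on chromosome 11 (83525778 to 83664683) include Ccl5, which T cells, NK cells and platelets release, and Ccl3, Ccl4, Ccl6 and Ccl9 of macrophages. Ccl5 had the smallest p of all members. Its levels were 4.42, 6.04 and 6.53 CPM (lowest, median and highest) in Ad-sham and 3.45, 9.64 and 58.7 CPM in Ad-FAM3A. In 5 of 7 Ad-FAM3A aortas it exceeded the highest Ad-sham value, and in Ad-FAM3A4 (3.45 CPM) and Ad-FAM3A5 (4.78 CPM) it did not. Between the groups it differed by 1.51 on the log2 scale (SE 0.56, unadjusted p = 0.017 and adjusted p = 0.810 by edgeR), and the two-sided exact permutation test of log2 CPM over the 1716 splits of the aortas gave p = 0.129. Without Ad-FAM3A6 it was 0.70, and without both aortas 0.44 (SE 0.32).

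Ccl3 had medians of 0.786 CPM in Ad-sham and 2.25 CPM in Ad-FAM3A, was highest in Ad-FAM3A2 (6.14 CPM), and exceeded the median of Ad-sham in 6 of 7 Ad-FAM3A aortas. Its log2 fold change was 1.25 (SE 0.79, unadjusted p = 0.134 by edgeR) with all aortas and 1.22 without Ad-FAM3A6 and Ad-FAM3A7. Ccl4 had 0.69 (SE 0.62). The abundant ligands Ccl6 and Ccl9 differed little, with log2 fold changes of -0.24 (SE 0.30) and -0.23 (SE 0.35). Ccl6 ranged from 82.1 to 203 CPM in Ad-sham and from 58.6 to 211 CPM in Ad-FAM3A, and Ad-FAM3A6, high for the lymphocyte genes, had its lowest level. Ccr1, a receptor of these ligands, had a log2 fold change of 0.02 (SE 0.51).

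Cxcl12 retains stem cells and lymphocytes in tissue and acts through Cxcr4, with Ackr3 as its scavenger. Cxcl12 was the most abundant member in CPM, with a lowest, median and highest level of 183, 274 and 438 CPM in Ad-sham and 159, 281 and 380.3 CPM in Ad-FAM3A. Its span of 2.76-fold was narrower than that of any other tested member except Ccl25 (2.18-fold), and its log2 fold change was -0.17 (SE 0.28, unadjusted p = 0.553 by edgeR). Ackr3 was at 73.0 to 165 CPM in Ad-sham and 54.1 to 127 CPM in Ad-FAM3A and below the Ad-sham median in 6 of 7 Ad-FAM3A aortas, with a log2 fold change of -0.29 (SE 0.22, unadjusted p = 0.195 by edgeR). Cxcr4 was at 10.2 to 26.6 CPM in Ad-sham and at 7.83 to 101 CPM in Ad-FAM3A, and the highest aorta was again Ad-FAM3A6. The Cxcr4 log2 fold change was 0.75 (SE 0.47, unadjusted p = 0.129 by edgeR), and 0.15 without both aortas.

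Cxcl14, a CXC ligand made by fibroblasts and epithelia whose receptor is debated, was the 1 member with a log2 fold change below -1 when all aortas were compared. It lay at 4.30, 12.6 and 38.3 CPM (lowest, median and highest) in Ad-sham and 2.87, 8.58 and 13.7 CPM in Ad-FAM3A. The highest aortas were Ad-sham5 (38.3 CPM) and Ad-sham4 (27.0 CPM), the lowest was Ad-FAM3A5, and 6 of 7 Ad-FAM3A aortas were below the Ad-sham median. Between the groups the log2 fold change was -1.03 (SE 0.45, unadjusted p = 0.0387, adjusted p = 0.810 by edgeR), and the two-sided exact permutation test gave p = 0.157. It was -1.11 without Ad-FAM3A6 and Ad-FAM3A7, and -0.62 without Ad-sham5. Ad-sham5 also had the highest sum of the 5 fibroblast markers, 7587 CPM, of which Col1a1 made up 4919 CPM. Pdgfra was highest there too (162 CPM). Lum, Dcn and Pi16 were highest in Ad-FAM3A3 (780 CPM), Ad-sham6 (2003 CPM) and Ad-sham4 (405 CPM). The sums ranged from 2504 to 7587 CPM in Ad-sham and 1615 to 5154 CPM in Ad-FAM3A, with none of the 5 markers left untested. The orders differed elsewhere, since Ad-sham6, with the next highest sum (6037 CPM), had the lowest Cxcl14 of Ad-sham (4.30 CPM), and Ad-FAM3A5, lowest of all in Cxcl14, had 4937 CPM. Their part in the Cxcl14 level was not tested.

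The neutrophil ligands were scarce. Cxcl1, the highest of them per length, was at 1.51 to 9.75 CPM in Ad-sham and 2.13 to 6.61 CPM in Ad-FAM3A, with a log2 fold change of -0.07 (SE 0.46). Cxcl5 was at no more than 0.990 CPM in Ad-sham and reached 7.32 CPM in Ad-FAM3A3 and 4.39 CPM in Ad-FAM3A7, whereas the other 5 Ad-FAM3A aortas lay between 0 and 0.726 CPM. Its log2 fold change was 1.86 (SE 1.01, unadjusted p = 0.0868 by edgeR), but 0.45 with limma-voom and 0.03 with the replicate number as a block. Cxcr2, the receptor by which neutrophils sense these ligands, was highest in Ad-FAM3A7 (14.6 CPM), Ad-FAM3A6 (11.9 CPM) and Ad-sham2 (5.57 CPM), and its log2 fold change was 1.30 (SE 0.78, unadjusted p = 0.116 by edgeR) with all aortas and -0.25 without Ad-FAM3A6 and Ad-FAM3A7. Of the 6 neutrophil markers 3 were tested. All 6 together summed to 5.04 to 81.6 CPM in Ad-sham, with 81.6 CPM in Ad-sham2. In Ad-FAM3A they summed to 9.63 to 35.3 CPM, with 35.3 and 21.1 CPM in Ad-FAM3A6 and Ad-FAM3A7. Ly6g was at 0 in 9 aortas. Their part in the Cxcr2 level was not tested. Cxcl2, Cxcl3, Cxcl15 and Cxcr1 had 187, 61, 15 and 41 counts over the 13 aortas.

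Ccl11 is the eosinophil ligand that fibroblasts and smooth muscle cells make. It was at 14.03, 17.6 and 36.4 CPM in Ad-sham and 10.6, 14.5 and 26.3 CPM in Ad-FAM3A, and below the Ad-sham median in 6 of 7 Ad-FAM3A aortas. Its log2 fold change was -0.36 (SE 0.25, unadjusted p = 0.173 by edgeR). Without Ad-FAM3A6 and Ad-FAM3A7 it was -0.56 (SE 0.25), and without Ad-sham1, the highest aorta, it was -0.10. Ccl24 and the receptor Ccr3 had log2 fold changes of 0.40 (SE 0.54) and 0.49 (SE 0.70), and Ccl26 had 5 counts in all.

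Cx3cl1 and Cxcl16 are made as membrane-bound proteins that hold leukocytes at the vessel wall and are shed by proteases. Cxcl16 was at 11.02 to 44.9 CPM in Ad-sham and 16.5 to 58.4 CPM in Ad-FAM3A, with a log2 fold change of 0.35 (SE 0.36, unadjusted p = 0.35 by edgeR). Cx3cl1 had nearly equal medians (31.2 and 30.5 CPM) and a log2 fold change of -0.01 (SE 0.38), which leaves room for changes of either sign within that error. Its receptor Cx3cr1, a marker of patrolling monocytes, was at 2.36 to 27.1 CPM in Ad-sham and 1.69 to 19.1 CPM in Ad-FAM3A (log2 fold change -0.10, SE 0.59). The Cx3cr1 locus as deposited spans 9 other genes, among them Xirp1 on the same strand (10076 counts against 2177 for Cx3cr1), and reads in shared parts could belong to either gene. Xcr1, the receptor of cross-presenting dendritic cells, was at no more than 1.59 CPM except in Ad-FAM3A6 (7.73 CPM) and Ad-FAM3A7 (3.46 CPM), and its log2 fold change went from 0.94 (SE 0.93) to -1.33 (SE 0.71) without them. Its ligand Xcl1 had 57 counts in all.

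The ligands and receptors of thymus, skin and mucosa were low. Ccl27a, a skin ligand and the highest of them per length, had medians of 7.50 CPM in Ad-sham and 6.32 CPM in Ad-FAM3A and a log2 fold change of -0.39 (SE 0.30). It overlaps Il11ra1 on the opposite strand, which had 25349 counts against 1606 for Ccl27a. Ccr9, which developing T cells and gut-homing lymphocytes carry, had 226 counts in Ad-sham4 (14.5 CPM), 185 in Ad-FAM3A6 (11.2 CPM) and 4 to 30 in the other 11 aortas, and it overlaps Lztfl1 on the opposite strand. In Ad-sham4 the list of 7 thymus genes, none of which was tested, summed to 134 CPM, with Rag1 at 91.5 and Dntt at 37.6 CPM, and in the others it was at 0 to 7.95 CPM. Foxn1, the defining gene of thymic epithelium, was at 0 in every aorta, and in Ad-FAM3A6 the thymus list was at 2.18 CPM. The Ccr9 log2 fold change was -0.51 (SE 1.07) with all aortas and -2.55 (SE 1.02) without Ad-FAM3A6 and Ad-FAM3A7, which leaves out the 1 high Ad-FAM3A aorta and keeps Ad-sham4. Ccl22, a dendritic cell ligand of Ccr4, reached 8.46 CPM in Ad-FAM3A6 and was at most 2.24 CPM elsewhere, and its log2 fold change went from 1.02 to -0.42 without that aorta and to -0.61 (SE 0.75) without both. Ccl25 and Ccr10, which overlaps Cntnap1 on the opposite strand, had log2 fold changes of 0.13 (SE 0.23) and -0.57 (SE 0.44). Ccl28, a mucosal ligand, had 0.15 (SE 0.49), and Ccl17, a further ligand of Ccr4, had 77 counts and was not compared. Ccl1, Ccl27b and Ccl21b had 4, 13 and 5 counts, so that the share of 1 aorta in them rests on few reads. Cxcl17 had 18 counts, the scaffold copies of Ccl27a and Ccl21c that were detected had 27 and 22, and the other 4 scaffold copies had 0 in every aorta.

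The atypical receptors Ackr1, which endothelium and erythroid cells carry, and Ackr2, a scavenger of inflammatory CC ligands, had log2 fold changes of -0.54 (SE 0.46) and 0.47 (SE 0.41). Ackr2 was highest in Ad-FAM3A6 and Ad-FAM3A7 (11.1 and 7.97 CPM), and without them its value was 0.01 (SE 0.40). Ackr1 was below the Ad-sham median in 6 of 7 Ad-FAM3A aortas and ranged from 1.78 to 15.4 CPM within that group. Ackr1 overlaps Cadm3 on the same strand, and reads in the shared part could belong to either gene.

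Leaving out Ad-FAM3A6 and Ad-FAM3A7 changed the balance of directions in the family. Both are of 1 group and were set aside for their high immunoglobulin counts, and they were high in B cell genes as well. A downward shift of members that are high in them therefore follows from the choice, and these values are a description. Of the 42 members that could be compared both ways, 13 went from a log2 fold change above 0 to one below it and 1 went the other way. With 5 Ad-FAM3A against 6 Ad-sham aortas, 11 of 42 members were above 0 (26.2%, against 48% of all genes tested) and the median was -0.26. No member was called, as was the case for all genes (0%). The member above 1 was Ccl3, and those below -1 were Ccl8, Ccl12, Ccr9, Cxcl10, Cxcl13, Cxcl14 and Xcr1. The 10 members above 0 both times were Ackr2, Ackr4, Ccl2, Ccl3, Ccl5, Ccl24, Ccl28, Ccr3, Cxcl16 and Cxcr4.

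**Figure D5:**
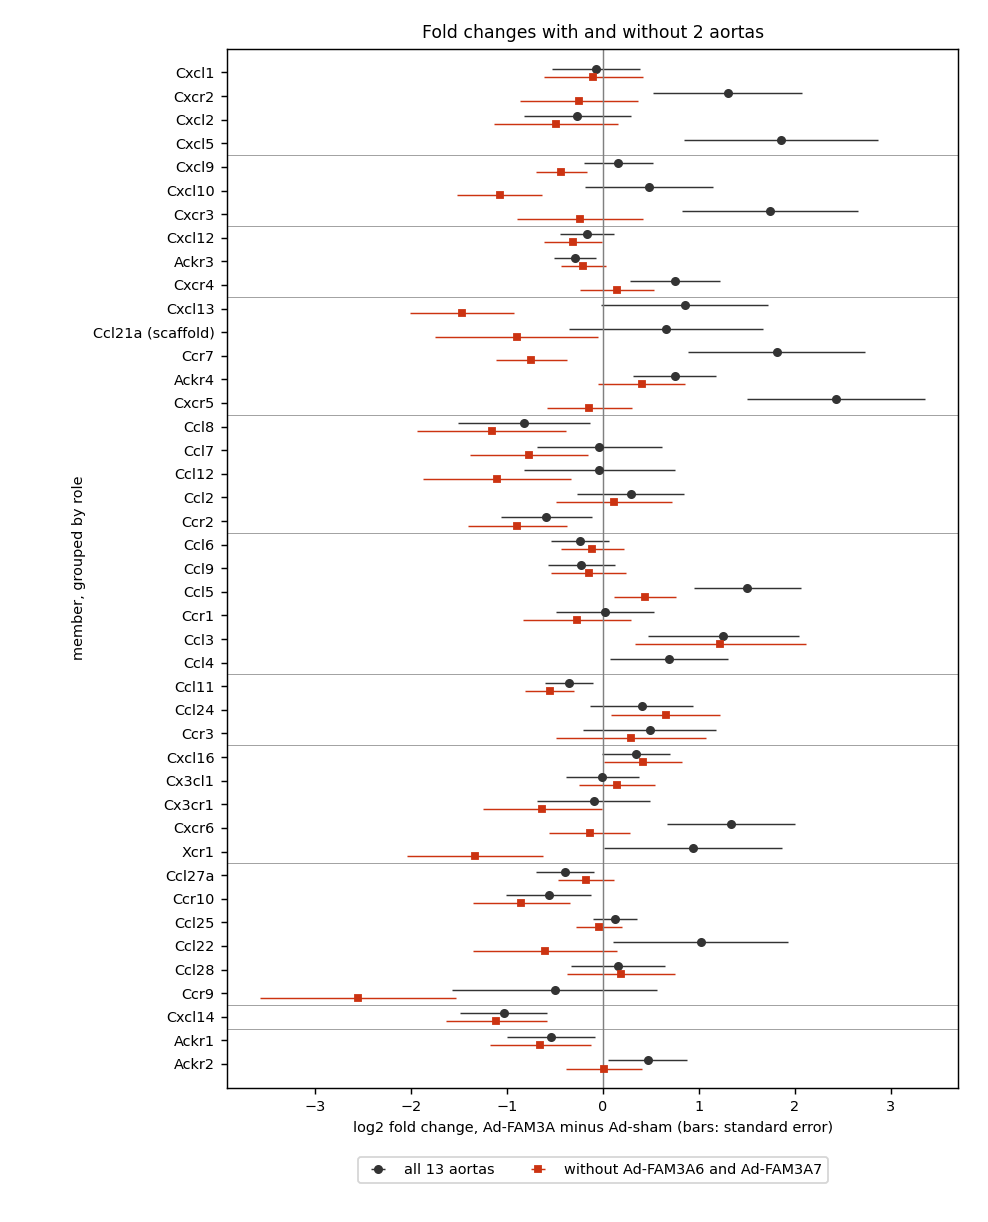
Log2 fold change of Ad-FAM3A against Ad-sham with its standard error for 43 of the 44 tested members, with all 13 aortas (black circles) and without Ad-FAM3A6 and Ad-FAM3A7 (red squares, missing for Ccl4 and Cxcl5, which were then too low). Circles lie right of 0 for 25 members and squares for 11, and the widest gaps are those of Cxcr5, Ccr7, Cxcl13, Xcr1 and Ccr9.

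The genes through which chemokines are processed and signal were taken from a list of 68, of which 66 were found and 63 tested. None was called (0% of all genes), 52 had a log2 fold change above 0 and 11 below, and the median was 0.24. By subgroup, 32 of 38 genes of receptor signalling, 10 of 11 integrins and selectins of leukocyte entry and 4 of 6 processing enzymes were above 0. The majority was gone when Ad-FAM3A6 and Ad-FAM3A7 were left out, with 29 of 63 above 0 and 34 below (48% of all genes above 0), a median of -0.07, and none called (0% of all genes). The subgroups then had 18 of 38, 5 of 11 and 3 of 6 above 0. Among chemokines with older names, Pf4 (the platelet ligand Cxcl4) and Ppbp (Cxcl7) had log2 fold changes of -0.20 (SE 0.26) and -0.25 (SE 0.66).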

How the data were processed

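RNA of 13 aortas was sequenced by the authors, and reads that passed quality control were mapped to GRCm38 by Hisat2 and assigned to genes by FeatureCounts. The counts were deposited as whole numbers, without normalization, with 0 sample columns left unmapped. The strand setting, the annotation release and the rule for reads mapping to several genes are not given in the sources used here, so counts of overlapping genes and near-identical copies are uncertain. The labels and the study's methods name different RNA and library kits. The deposited FPKM hold 1 mean per group and were not used.

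The counts were analysed in R 4.3.3. All genes kept by filterByExpr (15811) were compared with edgeR 4.0.16 (TMM normalization, quasi-likelihood test, Benjamini-Hochberg adjustment over all of them), Ad-FAM3A minus Ad-sham, without covariates. A call needed an absolute log2 fold change above 1 with the adjusted p below 0.05. CPM are TMM-normalised, and log2 CPM has a prior count of 2. The SE was derived from the log2 fold change and the test's F. Exact permutation tests used all 1716 splits of the aortas, where the smallest possible p is 0.000583. Each label names a separate mouse aorta, and no pair of the 78 library pairs agreed within counting noise (smallest reduced chi-square 41.7). The tests were tried on simulated data.

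Members described in full were, in each group of roles, the highest per length, the 10 with the smallest p, and those in which 1 aorta held over 50% of the summed CPM, and pathway genes with an unadjusted p under 0.05, except for a few genes that are not reported here. Members, gene lists and rules were chosen with earlier results of these data known. Gene positions are those of the deposited table, which matched GENCODE M21 for all 66 members. Promoters are RefSeq's, GRCm38.p6. Alternatives were DESeq2's size factors or library totals, no filter on low counts, DESeq2 1.42.0, limma-voom (limma 3.58.1), a block for the replicate number, and the omission of aortas. Depth was 14481179 to 19797407 counts per aorta.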

Additional observations from a re-analysis of the deposited data

Results flagged for a closer look

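In 5 of the 88 groups of aortas examined (44 members in each of 2 treatment groups), 1 aorta lay far from the others on the log2 CPM scale by Dixon's criterion. Chance alone flags about 1 in 20 groups, or 4.4 of 88. Within Ad-FAM3A, Ad-FAM3A6 was high for Ccl22 (3.101, others -1.074 to 0.2174) and for Ccr9 (3.499, others -1.419 to 0.5937). Within Ad-sham, Ad-sham1 was high for Ccl11 (5.192, others 3.823 to 4.231) and low for Cxcr5 (-0.1274, others 0.9552 to 1.469), and Ad-sham2 was low for Ackr1 (1.682, others 3.133 to 3.889). Where Ad-FAM3A6 and Ad-FAM3A7 were both high, as for Cxcl13, Ccr7 or Cxcr5, the distance to the nearest aorta was too small for this criterion.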

How the results depend on the processing

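No member and no pathway gene was called under any alternative run, and the median log2 fold change of the members lay between -0.26 and 0.38. DESeq2 called 10 of all genes and no member. Members with an unadjusted p under 0.05 numbered 3 of 44 as reported, 8 of 62 without a filter on low counts, 7 of 61 with DESeq2, 0 with limma-voom and 1 with the replicate block, and 2 to 7 as single aortas were left out (2 without Ad-sham5 or Ad-FAM3A6, 5 without Ad-sham2, 6 without Ad-FAM3A4, 7 without Ad-FAM3A5). Members above 0 numbered 25 of 44 as reported, 39 of 62 without a filter, which let more members in, 11 of 42 without Ad-FAM3A6 and Ad-FAM3A7, and 17 of 42 (without Ad-FAM3A6) to 31 of 44 as single aortas were left out.

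Among the 20 members followed through the alternatives, directions reversed for Ccr7 with DESeq2 (-0.14), for Cxcl1 (0.0426) and Cxcl13 (-0.12) with limma-voom, and for Cxcl9 (-0.13) and Cxcl13 (-0.73) with the replicate block. The replicate numbers share only a number, since 3 of 6 same-numbered pairs had deviations correlated above 0.1 (-0.33 to 0.45) and 1 Ad-sham aorta correlated best with its own number. Members high in Ad-FAM3A6 or Ad-FAM3A7 had smaller values with limma-voom and with the replicate block, 0.98 and 0.49 for Cxcr5, 0.38 and 0.15 for Cxcr3, 0.92 and 0.76 for Ccl5 and 0.45 and 0.03 for Cxcl5. Leaving out single aortas took Cxcl1 from -0.25 to 0.36, Cxcl9 from -0.23 to 0.36, Cxcl13 from -0.21 to 1.19 and Ccr7 from -0.15 to 2.08. Without Ad-FAM3A6 and Ad-FAM3A7 the values were -0.43 for Cxcl9, -1.47 for Cxcl13, -0.14 for Cxcr5, -0.14 for Cxcr6, -0.75 for Ccr7, -0.24 for Cxcr3 and -0.25 for Cxcr2. Apart from leaving out aortas, the causes were not tested. The members' median, 0.16 as reported, was below 0 under 4 of 20 alternatives (-0.06 with the replicate block, -0.01 without Ad-FAM3A3, -0.08 without Ad-FAM3A6 and -0.26 without Ad-FAM3A6 and Ad-FAM3A7), all within the SD between aortas (0.54). Apart from these medians, the remaining values of the 20 members kept their direction, and none reached an adjusted p below 0.05. Their size was not always kept. The log2 fold change of Cxcl14, for example, was -1.03 as reported and -0.62 without Ad-sham5. The remaining counts stayed within 1.5 times.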
